A study of Mus musculus with 18 samples.

Results

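The comparison described here asks how far the response of fibroblasts to tumour necrosis factor (TNF) depends on p65, by taking the difference of 2 responses at 90 min. The first is the change of p65 KO cells given TNF against p65 KO cells left untreated. The second is the same change in WT cells. The difference is the first minus the second on the log2 scale, so a negative value means that the response of p65 KO cells was lower than that of WT cells. It uses 8 of the 18 libraries of the series, which are 4 of its 9 groups. All cells were immortalised mouse embryonic fibroblasts (MEFs) in DMEM with 10% serum. The groups were p65 KO cells given 10 ng/ml TNF alpha for 90 min, p65 KO cells untreated, WT cells given 10 ng/ml TNF alpha for 90 min and WT cells untreated, with 2 libraries each, called a and b here. The other libraries, of IKK2 KO cells and of 45 min of TNF, entered the fit as well. Each genotype was a single immortalised line in the labels, so loss of p65 and any other difference between the lines cannot be told apart. The labels do not say whether the 2 libraries of a group came from separate cultures. The p-values therefore measure only the spread between these libraries, which may be technical. In these 4 groups that spread was 1.16 to 2.71 times counting error alone (chi-square per degree of freedom, genes with at least 10 counts). Over all 18 libraries the fit put the spread beyond counting error at 1.93%. The source of this small spread was not tested.

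p65 is the product of Rela and the main activating subunit of NF-κB, a family of dimeric transcription factors held in the cytoplasm by inhibitor (IκB) proteins. TNF binding to its receptor leads through adaptor and ubiquitin-ligase proteins to the IκB kinase complex, which marks IκBα for destruction and frees the dimers to enter the nucleus and bind κB sites. Among the best known targets are genes of the inhibitors themselves, chemokines and adhesion molecules. TNF also activates the MAP kinases JNK, p38 and ERK, which act on AP-1 and other immediate-early factors. In fibroblasts this response recruits leukocytes and is restrained by negative feedback.

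Promoter sequences of 4 genes whose TNF response was lower in p65 KO cells are shown because they carry the κB consensus that NF-κB dimers bind. Each is the 250 bases before the RefSeq start (GRCm38.p6), written 5′ to 3′ on the strand of the gene, with every match to the κB consensus on either strand in capitals. The window of Cxcl10 is chr5:92348890-92349139 on the minus strand, that of Nfkbie chr17:45555450-45555699 on the plus strand, that of Nfkbia chr12:55492648-55492897 on the minus strand and that of H2-K1 chr17:34000348-34000597 on the minus strand.
Cxcl10: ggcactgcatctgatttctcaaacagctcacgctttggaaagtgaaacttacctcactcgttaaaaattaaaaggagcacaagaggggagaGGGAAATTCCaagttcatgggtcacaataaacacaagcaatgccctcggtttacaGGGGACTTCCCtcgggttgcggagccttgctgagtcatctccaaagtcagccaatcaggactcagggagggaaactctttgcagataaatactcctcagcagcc
Nfkbie: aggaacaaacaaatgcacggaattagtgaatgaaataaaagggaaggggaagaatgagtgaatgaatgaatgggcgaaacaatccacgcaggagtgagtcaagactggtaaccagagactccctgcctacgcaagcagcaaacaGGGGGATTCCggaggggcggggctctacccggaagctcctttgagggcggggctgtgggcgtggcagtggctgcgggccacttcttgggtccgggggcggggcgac
Nfkbia: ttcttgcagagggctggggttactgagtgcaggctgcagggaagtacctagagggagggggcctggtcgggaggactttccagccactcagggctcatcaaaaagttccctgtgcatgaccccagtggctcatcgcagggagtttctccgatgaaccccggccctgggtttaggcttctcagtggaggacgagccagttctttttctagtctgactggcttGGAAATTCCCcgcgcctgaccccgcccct
H2-K1: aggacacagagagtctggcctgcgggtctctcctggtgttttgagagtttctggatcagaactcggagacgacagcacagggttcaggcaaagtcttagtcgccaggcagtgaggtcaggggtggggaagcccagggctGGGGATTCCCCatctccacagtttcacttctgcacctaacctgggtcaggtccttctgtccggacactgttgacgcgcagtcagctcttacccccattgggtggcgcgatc
In Cxcl10 and H2-K1 a run of capitals longer than 10 bases holds overlapping matches. Over the 300 bases from 250 before to 50 after the start, the κB consensus was found in 41.2% of the 51 genes with a RefSeq promoter whose response was lower in p65 KO cells by at least 2-fold. It was found in 21.3% of the 409 genes called lower, 12.7% of the 221 called higher, 12.2% of the 10145 genes tested that have a promoter and 8.46% of the 32851 promoters in the table. The letters TGANTCA were searched on both strands with any base at N, which is wider than the AP-1 core with C or G there. They were found in 25.5% of the genes lower by at least 2-fold, 9.54% of those called lower and 4.07% of those called higher. The share was 6.26% over the genes tested and 7.81% over all promoters. Neither motif was found among the 9 genes with a promoter that were called higher by at least 2-fold. A match describes the letters and does not show binding.

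The 8 libraries held 18.9 to 23.5 M counts, with 20492 to 21848 genes having a count, and 16322 genes passed the filter on low counts and were tested. Levels below are CPM, counts scaled by library size, given for library a and then b. Each change is a log2 fold change ± its standard error, fitted with edgeR's quasi-likelihood method, and a gene was called at an adjusted p under 0.05. Rela, the deleted gene, stood at 6.34 and 6.55 CPM in TNF-treated p65 KO cells, 5.25 and 6.11 CPM in untreated p65 KO cells, 108 and 110 CPM in TNF-treated WT cells and 63.2 and 64.4 CPM in untreated WT cells. Its response differed by −0.59 ± 0.12 (adjusted p = 8.5e-04), a call that did not hold with untreated p65 KO library b left out (adjusted p = 0.0918). Ikbkb, encoding the kinase IKK2 that acts upstream of p65, had a difference of −0.02 ± 0.06 (adjusted p = 0.94). All 13 fibroblast markers had counts, summing to 4990 to 5120 CPM in TNF-treated p65 KO cells, 4960 to 4980 CPM in untreated p65 KO cells, 11400 to 11600 CPM in TNF-treated WT cells and 11500 to 11700 CPM in untreated WT cells. Fn1 made up 36.6% of this. Postn did not pass the filter, and 2 of the 12 fibroblast markers tested had a group of 3 counts or fewer. The defining muscle genes Myod1, Myog and Myf5, the epithelial Krt5 and Esrp1, the endothelial Cldn5, the neural Olig2 and Sox10 and the adipocyte Adipoq and Plin1 had 0 counts in all 8 libraries. Over the lists for these types and for myeloid cells, 13 markers passed the filter, of which edgeR and DESeq2 called 0 in the difference and 1 had an unadjusted p under 0.05. For myeloid markers, where Adgre1 and Tyrobp had 0 counts, the sum was 12.4 to 12.6 CPM in TNF-treated p65 KO cells, 11.3 to 11.7 CPM in untreated p65 KO cells, 8.72 to 10.8 CPM in TNF-treated WT cells and 9.6 to 10.5 CPM in untreated WT cells, most of it Cd14. Neural markers summed to 219 to 223 CPM in TNF-treated p65 KO cells, 223 to 234 CPM in untreated p65 KO cells, 576 to 581 CPM in TNF-treated WT cells and 562 to 566 CPM in untreated WT cells, with 57.4% of it from Nes, and 2 of 8 were at 0. Adipocyte markers, 92.8% of them Cebpa, summed to 1.01 to 1.62 CPM in TNF-treated p65 KO cells, 0.872 to 1.06 CPM in untreated p65 KO cells, 6.09 to 6.41 CPM in TNF-treated WT cells and 6.18 to 6.88 CPM in untreated WT cells. The muscle, epithelial and endothelial lists each summed to under 3 CPM in every library, with 3 of 8, 2 of 8 and 1 of 7 members at 0. Bulk RNA cannot tell fewer cells of a kind from less RNA per cell.

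The TNF response at 90 min differed between the lines in 880 genes, 5.39% of those tested. It was lower in p65 KO cells in 567 genes (3.47%), 77 of them by at least 2-fold, and higher in 313 genes (1.92%), 31 of them by at least 2-fold. The median difference over all genes tested was 0.00. TNF changed 1058 genes in p65 KO cells (6.48%), a count of 452 to 572 without any 1 p65 KO library, and 1521 in WT cells (9.32%). The shares of 3.47% and 1.92% are the background against which the counts of each gene list below are read. Among the 567 lower differences, 322 belonged to genes that rose in WT cells and were not called in p65 KO cells, 64 to genes that rose in both and 24 to genes that fell in p65 KO cells and rose in WT cells. A further 104 belonged to genes that fell in p65 KO cells and were not called in WT cells. Among the 313 higher differences, 129 belonged to genes that fell in WT cells and were not called in p65 KO cells, and 106 to genes that rose in p65 KO cells and were not called in WT cells. Another 17 rose in p65 KO cells and fell in WT cells. These counts come from the libraries that gave the difference and only describe its make-up. DESeq2's Wald test called 489 genes, and edgeR called 581 with untreated p65 KO library b left out and 582 with TNF-treated WT library a left out.

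**Figure D1:**
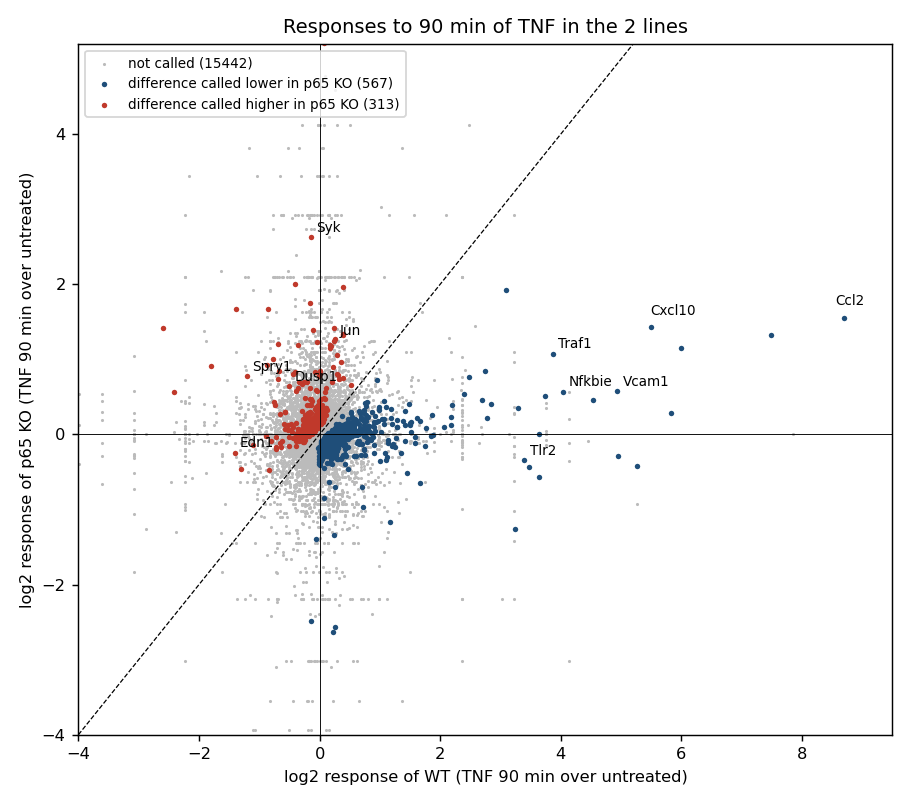
Log2 response to 90 min of TNF in p65 KO cells (vertical axis) against that in WT cells (horizontal axis), 1 point per gene tested. The dashed line marks equal responses. Blue points are the 567 genes called lower in p65 KO cells and lie below it. Red points are the 313 genes called higher in p65 KO cells and lie above it, and 7 genes fall outside the axes.

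Starting levels differed widely between the lines, and they enter the difference. Untreated p65 KO and untreated WT cells differed in 13196 genes, 80.8% of those tested. Of the 567 genes with a lower response in p65 KO cells, 56.3% were already higher in untreated p65 KO than in untreated WT cells and 32.6% were lower, against 39.8% higher and 41.1% lower over all genes tested. Of the 313 with a higher response, 26.8% were higher in untreated p65 KO cells and 60.1% were lower. Baseline and difference share the untreated libraries, so these shares are a description. In 45.7% of the genes with a lower response, untreated p65 KO cells had a mean CPM at or above that of TNF-treated WT cells, against 49.0% of all genes tested. After TNF, 57.1% of them were lower in p65 KO than in WT cells, against 50.9% of all genes. A lower response in p65 KO cells thus did not always mean a lower level after TNF. The part that the starting level plays in the differences was not tested.

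Of the inhibitors and feedback regulators of NF-κB, 6 of 13 tested were called lower in p65 KO cells and 0 higher (median difference −0.82, against 0.00 over all genes). The median was −0.73 over the 12 members without a group of 3 counts or fewer. Nfkbia encodes IκBα, the inhibitor that TNF destroys and NF-κB then rebuilds (ENSMUSG00000021025, GRCm38 chr12:55489410-55492647). It stood at 61.2 and 58.1 CPM in TNF-treated p65 KO cells, 33.5 and 33.1 CPM in untreated p65 KO cells, 105 and 100 CPM in TNF-treated WT cells and 15.6 and 15.2 CPM in untreated WT cells. It rose in both lines, by 0.84 in p65 KO cells and 2.74 in WT cells, a difference of −1.90 ± 0.07 (adjusted p = 1.6e-23). The untreated p65 KO libraries lay above the untreated WT ones and the TNF-treated p65 KO libraries below the TNF-treated WT ones.

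Nfkbie encodes a second inhibitor, IκBε, and had the largest difference of the inhibitors (−3.47 ± 0.22, adjusted p = 2.1e-16). Its levels were 5.99 and 7.82 CPM in TNF-treated p65 KO cells, 4.57 and 4.69 CPM in untreated p65 KO cells, 25.8 and 22.8 CPM in TNF-treated WT cells and 1.52 and 1.44 CPM in untreated WT cells. Tnfaip3, encoding the ubiquitin editor A20 that restrains signalling at the receptor, had 20.7 and 20.1 CPM in TNF-treated p65 KO cells, 12.3 and 11.7 CPM in untreated p65 KO cells, 50.2 and 46.8 CPM in TNF-treated WT cells and 8.98 and 8.54 CPM in untreated WT cells. It rose by 0.77 in p65 KO cells and 2.47 in WT cells (difference −1.71 ± 0.11, adjusted p = 1.5e-16). Like Nfkbia, both genes began higher and ended lower in p65 KO than in WT cells.

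Bcl3 encodes an atypical IκB protein that works in the nucleus with p50 and p52. It had 6.77 and 6.88 CPM in TNF-treated p65 KO cells, 4.98 and 5.65 CPM in untreated p65 KO cells, 5.74 and 5.44 CPM in TNF-treated WT cells and 0.71 and 0.452 CPM in untreated WT cells. The difference was −2.93 ± 0.26 (adjusted p = 8.8e-12). After TNF its level was higher in p65 KO than in WT cells, since untreated p65 KO cells already stood close to TNF-treated WT cells. Tnip1, whose product binds A20, differed by −1.37 ± 0.10, and Nfkbib, encoding IκBβ, by −0.97 ± 0.12. Among members that were not called, Nfkbiz had a difference of −0.02 ± 0.12, Cyld of 0.03 ± 0.04 and Otulin of −0.01 ± 0.09. Nfkbid had 0 counts in all 4 p65 KO libraries and gave no usable difference.

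All 5 NF-κB subunit genes, the deleted Rela among them, were called lower (median −0.92). Relb encodes the transactivating subunit of the non-canonical pathway. It had 18.6 and 17.6 CPM in TNF-treated p65 KO cells, 14.2 and 13.3 CPM in untreated p65 KO cells, 49.8 and 46.8 CPM in TNF-treated WT cells and 7.25 and 6.36 CPM in untreated WT cells, a difference of −2.44 ± 0.11 (adjusted p = 4.6e-21). Nfkb2, which encodes the p100 precursor of p52, had 118 and 120 CPM in TNF-treated p65 KO cells, 105 and 106 CPM in untreated p65 KO cells, 173 and 168 CPM in TNF-treated WT cells and 53.5 and 53.7 CPM in untreated WT cells (difference −1.49 ± 0.05, adjusted p = 4.3e-26). Both began about 2-fold higher in p65 KO cells, with baseline differences of 1.02 for Relb and 0.97 for Nfkb2. Nfkb1, encoding the p105 precursor of p50, differed by −0.92 ± 0.04 and Rel, encoding c-Rel, by −0.85 ± 0.08. These 2 genes stood close together in the untreated lines, with baseline differences of −0.21 and −0.04.

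Of the receptors, adaptors and kinases upstream of NF-κB, 3 of 20 were called lower and 0 higher (median −0.08). Traf1, a TNF-inducible adaptor of the type 2 TNF receptor, had 11.4 and 11.7 CPM in TNF-treated p65 KO cells, 5.16 and 5.77 CPM in untreated p65 KO cells, 8.91 and 10.5 CPM in TNF-treated WT cells and 0.659 and 0.657 CPM in untreated WT cells. It rose by 1.07 in p65 KO cells and 3.86 in WT cells (difference −2.79 ± 0.24, adjusted p = 8.8e-12), and its level after TNF was higher in p65 KO cells in both libraries. Traf3, an adaptor that limits the non-canonical pathway, differed by −0.75 ± 0.07 and Tnfrsf1b, the type 2 TNF receptor gene, by −0.52 ± 0.11. The gene of the main TNF receptor, Tnfrsf1a, had a difference of −0.03 ± 0.06, and those of Ripk1, Map3k7 and Ikbkg had −0.05 ± 0.07, −0.11 ± 0.05 and 0.08 ± 0.08.

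**Figure D2:**
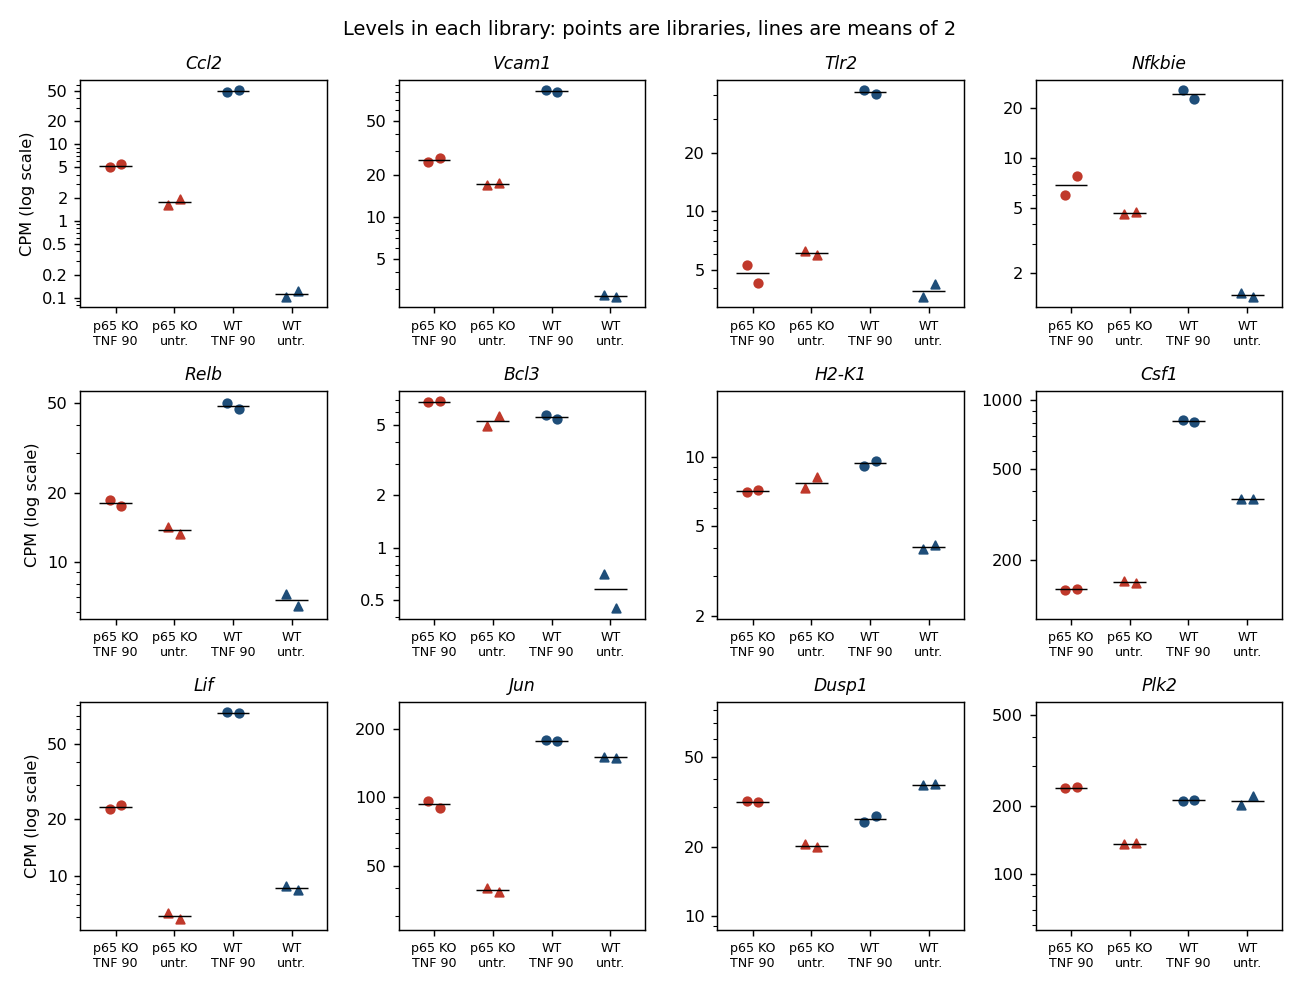
CPM (log scale) of 12 genes in each of the 8 libraries, with p65 KO cells in red, WT cells in blue, circles for 90 min of TNF, triangles for untreated cells and lines for the means of 2. In Vcam1, Nfkbie and Relb the blue points span a wider range than the red ones, and the untreated p65 KO points lie above the untreated WT points. In Jun, Dusp1 and Plk2 the treated red points lie above the untreated red points. The treated blue points lie slightly above the untreated ones in Jun, below them in Dusp1 and among them in Plk2.

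Chemokine genes, whose products attract leukocytes, were called lower in 5 of 10 cases and higher in 0 (median −1.97, or −1.56 over the 5 members without a group of 3 counts or fewer). Ccl2, which attracts monocytes, had the largest difference among the genes named by the rule (ENSMUSG00000035385, GRCm38 chr11:82035571-82037453). It stood at 5.01 and 5.49 CPM in TNF-treated p65 KO cells, 1.6 and 1.95 CPM in untreated p65 KO cells, 48.4 and 50.9 CPM in TNF-treated WT cells and 0.101 and 0.123 CPM in untreated WT cells. It rose by 1.55 in p65 KO cells and 8.70 in WT cells, a difference of −7.15 ± 0.36 (adjusted p = 1.5e-19). The groups did not overlap at any level, and untreated p65 KO cells stood above untreated WT cells.

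Cxcl10, which attracts activated T cells, had 5.2 and 4.63 CPM in TNF-treated p65 KO cells, 2.15 and 1.54 CPM in untreated p65 KO cells, 6.18 and 6.59 CPM in TNF-treated WT cells and 0.0507 and 0.205 CPM in untreated WT cells. Its difference was −4.06 ± 0.44 (adjusted p = 3.3e-09), although the TNF-treated lines ended near each other. Cx3cl1, encoding a membrane-bound chemokine, had 80.8 and 82.1 CPM in TNF-treated p65 KO cells, 71 and 70.4 CPM in untreated p65 KO cells, 160 and 156 CPM in TNF-treated WT cells and 75.6 and 78.3 CPM in untreated WT cells (difference −0.83 ± 0.05, adjusted p = 2.1e-16). Its untreated levels were close in the 2 lines and its treated levels were not.

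Ccl7 and Ccl5 had 0 counts in untreated WT cells, so their fitted differences depend on a prior count and are no bounds. Ccl7 rose at least 16.0-fold in WT cells, against a floor of 3 counts over the group, and stood at 1.1 and 1.11 CPM in TNF-treated p65 KO cells, 0.548 and 0.332 CPM in untreated p65 KO cells and 1.14 and 1.05 CPM in TNF-treated WT cells (adjusted p of the difference 0.0011). The call of Ccl5 (adjusted p = 0.047) was lost under 9 alternatives. Cxcl1, which attracts neutrophils, was not called (adjusted p = 0.48) and was nearly silent in WT cells, at 27.6 and 24.3 CPM in TNF-treated p65 KO cells, 8.81 and 6.81 CPM in untreated p65 KO cells, 0 CPM in both TNF-treated WT libraries and 0.0507 and 0 CPM in untreated WT cells.

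Among adhesion molecules and inflammatory effectors 4 of 12 were called lower and 1 higher (median −1.96, or −0.92 over the 8 members without a group of 3 counts or fewer). Vcam1, an endothelial and stromal ligand for leukocyte integrins, stood at 25.2 and 26.7 CPM in TNF-treated p65 KO cells, 17 and 17.8 CPM in untreated p65 KO cells, 83.2 and 81.1 CPM in TNF-treated WT cells and 2.74 and 2.63 CPM in untreated WT cells. The 8 libraries fell into 4 separate levels, and the difference was −4.36 ± 0.11 (adjusted p = 1.3e-29). Tlr2, a receptor for bacterial lipoproteins, had 5.28 and 4.26 CPM in TNF-treated p65 KO cells, 6.21 and 5.94 CPM in untreated p65 KO cells, 42.3 and 40.2 CPM in TNF-treated WT cells and 3.6 and 4.19 CPM in untreated WT cells (difference −3.74 ± 0.17, adjusted p = 1.4e-20). Here only the treated WT libraries stood apart by more than 2-fold.

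Sele, encoding E-selectin, had 2.94 and 3.28 CPM in TNF-treated p65 KO cells, 3.2 and 2.16 CPM in untreated p65 KO cells, 1.09 and 1.47 CPM in TNF-treated WT cells and 0.152 and 0.205 CPM in untreated WT cells (difference −2.54 ± 0.50, adjusted p = 4.6e-04). Every p65 KO library lay above every WT library. Ptges, a prostaglandin E synthase gene, differed by −0.45 ± 0.09. Ptgs2, encoding the cyclooxygenase that feeds it, had a difference of the opposite sign (0.49 ± 0.03, adjusted p = 5.8e-15), with a rise of 0.79 in p65 KO cells and 0.30 in WT cells. Sod2 had a difference of −0.10 ± 0.06 and was not called.

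Icam1, an adhesion molecule and a classical NF-κB target, had 0 counts in all 4 p65 KO libraries, 1.14 and 1.68 CPM in TNF-treated WT cells and 0 counts in untreated WT cells, a rise of at least 20.7-fold in WT cells. No difference could be tested, because a ratio of 0 to 0 is undefined. Icam1 was 1 of 195 genes tested that had 0 counts in all 4 p65 KO libraries, of which 9 rose in WT cells and 0 were called in the difference. The TNF-treated p65 KO libraries, at 23.4 and 22.7 M counts, were deeper than the TNF-treated WT libraries, at 20 and 18.9 M counts, which together gave 55 counts of Icam1. A level like that of WT cells would have been detectable and was not seen, and the 0 counts allow up to 3 counts over the TNF-treated p65 KO group. Slfn2, a gene of the interferon-inducible Schlafen family, was another of the 9, at 2.57 and 2.72 CPM in TNF-treated WT cells and 0.254 and 0.328 CPM in untreated WT cells.

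Cytokines and growth factors split, with 4 of 14 called lower and 3 higher (median 0.02). The higher count was 1 without TNF-treated WT library a or untreated p65 KO library b. Pdgfb, a growth factor for mesenchymal cells, had 8.88 and 9.58 CPM in TNF-treated p65 KO cells, 5.93 and 6.94 CPM in untreated p65 KO cells, 5 and 4.19 CPM in TNF-treated WT cells and 0.406 and 0.287 CPM in untreated WT cells (difference −3.22 ± 0.31, adjusted p = 1.9e-10). All 4 p65 KO libraries were above all 4 WT libraries. Csf1, the macrophage growth factor gene, had 148 CPM in both TNF-treated p65 KO libraries, 162 and 158 CPM in untreated p65 KO cells, 823 and 807 CPM in TNF-treated WT cells and 371 and 370 CPM in untreated WT cells. It fell slightly in p65 KO cells and rose in WT cells (difference −1.25 ± 0.04, adjusted p = 1.1e-26), with every p65 KO library below every WT library.

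Lif, an interleukin-6 family cytokine, had 22.6 and 23.5 CPM in TNF-treated p65 KO cells, 6.3 and 5.86 CPM in untreated p65 KO cells, 73.1 and 72.5 CPM in TNF-treated WT cells and 8.78 and 8.33 CPM in untreated WT cells. It rose in both lines, by 1.93 in p65 KO cells and 3.09 in WT cells, and the difference was −1.17 ± 0.13 (adjusted p = 1.5e-08). Vegfa, the angiogenic factor, differed by −0.63 ± 0.06. The 3 with a higher difference were Edn1 (1.17 ± 0.27), the vasoconstrictor endothelin-1, Hbegf (0.34 ± 0.06), a ligand of the EGF receptor, and Inhba (0.13 ± 0.04), an activin subunit. Hbegf stood at 49.6 and 50.6 CPM in TNF-treated p65 KO cells, 39.4 and 38 CPM in untreated p65 KO cells, 467 and 468 CPM in TNF-treated WT cells and 448 and 463 CPM in untreated WT cells, about 10-fold lower throughout in p65 KO cells. The calls of Edn1 and Inhba did not hold without certain libraries, where the adjusted p reached 0.176 and 0.167.

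Il15, Ankrd33b and Nod2 were also among the 12 lowest differences, and each was scarce in untreated WT cells. Il15, a cytokine for lymphocytes, had 0 counts in untreated WT cells and rose at least 3.34-fold there, while p65 KO cells had 2.11 and 1.35 CPM with TNF and 2.15 and 2.49 CPM without it. Its call was lost without either untreated WT library or without TNF-treated WT library a. Ankrd33b had 64 counts in TNF-treated WT cells and 1 in untreated WT cells, a ratio of 71.8 with a 95% counting interval of 12.4 to 2880. Nod2, an intracellular sensor of bacterial cell walls, had 26 counts and 1 count, a ratio of 29.2 (4.79 to 1200). For Nod2 the sign turned on the linear CPM scale, where the rise was larger in p65 KO cells, and its call was lost with DESeq2 (adjusted p = 0.07) and without untreated WT library b (adjusted p = 0.059). On that scale 22 of the 24 genes with the 12 lowest and 12 highest differences kept their sign, the exceptions being Nod2 and Id4.

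**Figure D3:**
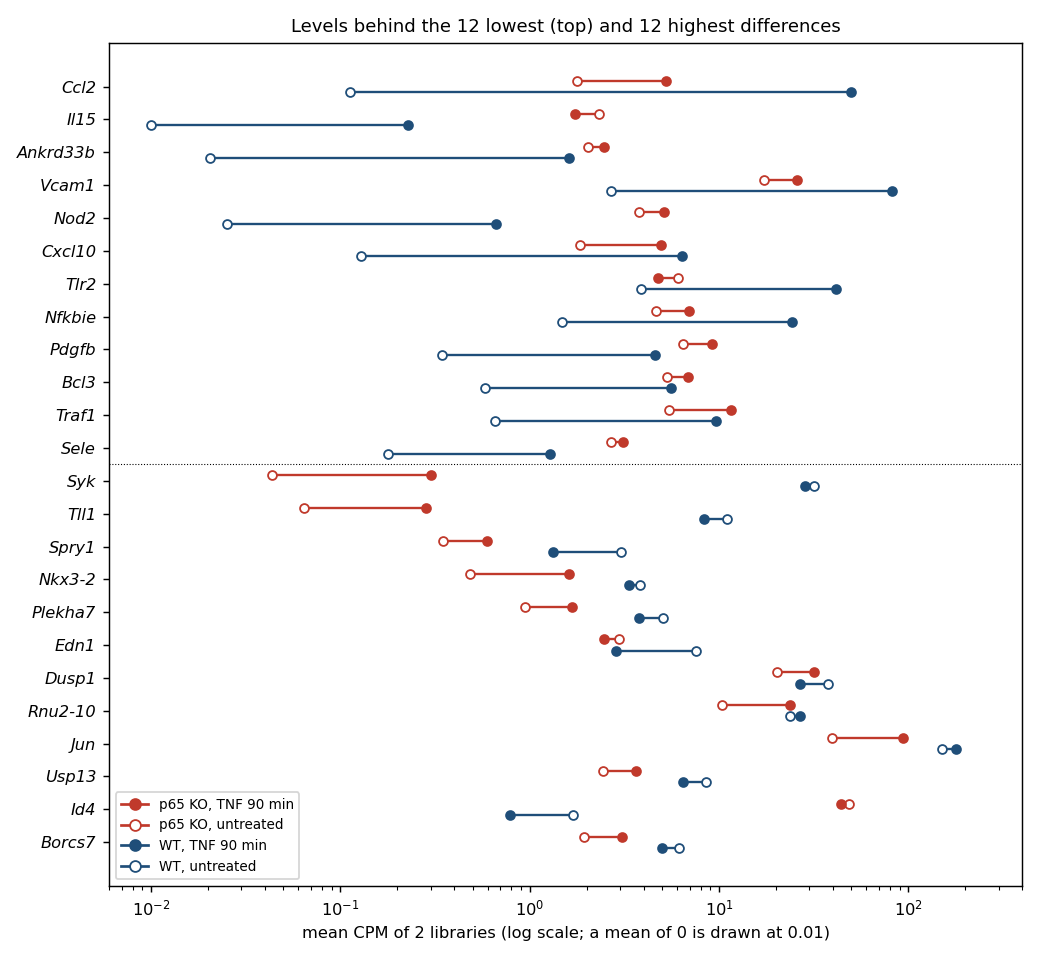
Mean CPM of 2 libraries (log scale) behind the 12 lowest differences, above the dotted line, and the 12 highest, below it. Filled circles are cells given 90 min of TNF, open circles untreated cells, red p65 KO and blue WT. In the 12 lowest the open red circles lie right of the open blue circles, and in 11 of the 12 highest they lie left of them, the exception being Id4.

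Of the survival genes 2 of 9 were called lower and 1 higher (median −0.02). The lower count was 1 without untreated WT library a or TNF-treated WT library a, and the higher count was 0 without TNF-treated p65 KO library a and 2 without untreated WT library b or untreated p65 KO library a. Birc2, encoding the ubiquitin ligase cIAP1 of the TNF receptor complex, had 14.4 and 13.2 CPM in TNF-treated p65 KO cells, 13 and 12.8 CPM in untreated p65 KO cells, 32.2 and 29.4 CPM in TNF-treated WT cells and 16.8 and 16.3 CPM in untreated WT cells (difference −0.80 ± 0.11, adjusted p = 9.1e-07). Its neighbour Birc3, encoding cIAP2, had a difference of −1.14 ± 0.58 that was not called (adjusted p = 0.33), at 0.548 and 0.655 CPM in TNF-treated p65 KO cells, 0.274 and 0.166 CPM in untreated p65 KO cells, 12.7 and 13 CPM in TNF-treated WT cells and 2.28 and 2.05 CPM in untreated WT cells. Ier3 differed by −0.22 ± 0.05 and Bcl2l1, encoding the anti-apoptotic Bcl-xL, by 0.31 ± 0.07. Both calls were lost without at least 1 library. Cflar, encoding the caspase-8 regulator cFLIP, had a difference of −0.02 ± 0.06, and Xiap of 0.05 ± 0.05.

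Genes of MHC class I antigen presentation were called lower in 7 of 10 cases and higher in 0. The median was −0.59, or −0.45 over the 9 members without a group of 3 counts or fewer. H2-K1, encoding a class I heavy chain, had 7 and 7.17 CPM in TNF-treated p65 KO cells, 7.3 and 8.14 CPM in untreated p65 KO cells, 9.15 and 9.63 CPM in TNF-treated WT cells and 3.96 and 4.1 CPM in untreated WT cells (difference −1.34 ± 0.17, adjusted p = 2e-07). The class I heavy chain genes are similar in sequence, so reads may be split between them and the value of H2-K1 is uncertain. Tapbp, encoding the peptide-loading protein tapasin, had 62.6 and 58.8 CPM in TNF-treated p65 KO cells, 63 and 60.1 CPM in untreated p65 KO cells, 33.5 and 36.2 CPM in TNF-treated WT cells and 20 and 21.7 CPM in untreated WT cells (difference −0.75 ± 0.08, adjusted p = 1.5e-09). Tap2, a subunit of the peptide transporter, differed by −1.18 ± 0.27, the immunoproteasome subunit gene Psmb10 by −0.72 ± 0.16, the peptide-trimming enzyme gene Erap1 by −0.45 ± 0.11 and B2m, the light chain gene, by −0.20 ± 0.04. The 2 untreated levels of Tapbp and Psmb10 were higher in p65 KO cells, where no response was called. Psmb8 had 2 counts in untreated WT cells and 25 in TNF-treated WT cells, a ratio of 14.0 (95% counting interval 3.49 to 122). Calls other than those of H2-K1 and Tapbp were each lost under at least 1 alternative, and 4 of the 7 remained without untreated p65 KO library b. Among members not called, H2-D1, another heavy chain gene, had a difference of −0.20, Tap1 of −0.19 and Nlrc5 of −0.35.

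Interferon regulatory factors and interferon-stimulated genes were called lower in 7 of 20 cases and higher in 1 (median −0.49). The lower count was 4 with DESeq2 and also without untreated WT library a, TNF-treated WT library b, untreated p65 KO library b or TNF-treated p65 KO library b. Irf1, a factor that drives MHC class I and antiviral genes, had 12.8 and 13.8 CPM in TNF-treated p65 KO cells, 14.5 and 14.2 CPM in untreated p65 KO cells, 16.2 and 15.7 CPM in TNF-treated WT cells and 4.51 and 5.99 CPM in untreated WT cells (difference −1.70 ± 0.13, adjusted p = 1e-13). Irf5 differed by −1.48 ± 0.17, from like levels in TNF-treated lines, at 12.2 and 13.1 CPM in p65 KO cells and 11.7 and 11.5 CPM in WT cells. Ddx58, encoding the RNA sensor RIG-I, differed by −1.05 ± 0.15 and Irf2 by −0.49 ± 0.10. Irf3, Stat2 and Gbp2 were called too, but each lost the call under at least 6 alternatives. Ifit2 was the one called higher (0.37 ± 0.10), a call lost with DESeq2 (adjusted p = 0.0959).

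Of the immediate-early genes 9 of 29 were called higher and 4 lower (median 0.13). The higher count was 5 without untreated p65 KO library b or TNF-treated p65 KO library b, and the lower count was 2 without TNF-treated p65 KO library a. Jun, an AP-1 subunit gene and a target of JNK signalling, stood at 96.6 and 89.8 CPM in TNF-treated p65 KO cells, 40 and 38.6 CPM in untreated p65 KO cells, 178 and 177 CPM in TNF-treated WT cells and 150 CPM in both untreated WT libraries (ENSMUSG00000052684, GRCm38 chr4:95049034-95052222). It rose by 1.25 in p65 KO cells and 0.24 in WT cells, a difference of 1.0 ± 0.06 (adjusted p = 1.9e-17). Every p65 KO library remained below every WT library, so the larger rise began from a lower level.

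Junb, another AP-1 subunit gene, differed by 0.35 ± 0.06 and stood at 330 and 320 CPM in TNF-treated p65 KO cells, 196 and 190 CPM in untreated p65 KO cells, 235 and 231 CPM in TNF-treated WT cells and 180 and 175 CPM in untreated WT cells. Klf6 (0.34 ± 0.05), Egr1 (0.25 ± 0.06) and Myc (0.23 ± 0.05), all genes of growth-responsive transcription factors, were also called higher. Fos (0.93 ± 0.28), Btg2 (0.62 ± 0.16), Ier2 and Btg1 were called higher as well, with calls lost in at least 3 alternatives each. Of the 4 lower ones, Klf10 (−0.35 ± 0.05) fell in p65 KO cells and was not called in WT cells, and Fosl1 (−0.26 ± 0.06), an AP-1 gene, rose less in p65 KO cells. Nr4a3 (−2.33 ± 0.57) was scarce in p65 KO cells, and its call and that of Cebpb were each lost without at least 1 library.

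Negative regulators of MAP kinases and RNA-decay factors were called higher in 6 of 19 cases and lower in 2 (median 0.07). Dusp1, a phosphatase that switches off JNK and p38, stood at 31.8 and 31.5 CPM in TNF-treated p65 KO cells, 20.6 and 20 CPM in untreated p65 KO cells, 25.8 and 27.5 CPM in TNF-treated WT cells and 37.6 and 37.8 CPM in untreated WT cells. It rose in p65 KO cells by 0.64 and fell by 0.50 in WT cells, a difference of 1.15 ± 0.08 (adjusted p = 1.1e-14). The order of the lines was reversed between the untreated and the treated libraries. Dusp8, a phosphatase gene of the JNK pathway, rose by 1.33 in p65 KO cells and 0.39 in WT cells (difference 0.94 ± 0.13). Dusp16 (0.42 ± 0.07) and Zfp36l2, which destabilises AU-rich messages (0.46 ± 0.05), were also called higher. Spry1, an antagonist of receptor tyrosine kinase signalling, had 0.665 and 0.532 CPM in TNF-treated p65 KO cells, 0.32 and 0.374 CPM in untreated p65 KO cells, 1.19 and 1.47 CPM in TNF-treated WT cells and 2.84 and 3.24 CPM in untreated WT cells (difference 1.98 ± 0.48, adjusted p = 0.0058, lost without TNF-treated p65 KO library a). Dusp7 was called lower (−0.31 ± 0.06), as was Dusp14, whose call was lost under 7 alternatives. Of 13 p38 and JNK cascade kinases, 3 were called lower and 0 higher, and Map2k3, a kinase that activates p38, was the one whose call held in every alternative (−0.31 ± 0.05).

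p53 target genes were called higher in 3 of 19 cases and lower in 0 (median 0.08). Plk2, a stress-induced kinase gene, had 239 and 241 CPM in TNF-treated p65 KO cells, 135 and 136 CPM in untreated p65 KO cells, 211 and 212 CPM in TNF-treated WT cells and 201 and 220 CPM in untreated WT cells (difference 0.82 ± 0.04, adjusted p = 3.3e-18). It rose in p65 KO cells and was not called in WT cells. The other 2 were Mdm2 (0.20 ± 0.05), whose call was lost under 5 alternatives, and Btg2, also on the immediate-early list, lost under 3. The count of 3 became 1 without untreated p65 KO library b. Targets of YAP and SRF, factors that follow cell shape and adhesion, were called higher in 4 of 9 cases and lower in 0, or 1 without untreated WT library b (median 0.17). Ccn1, encoding a matrix-associated signalling protein, had 379 and 378 CPM in TNF-treated p65 KO cells, 306 and 303 CPM in untreated p65 KO cells, 727 and 724 CPM in TNF-treated WT cells and 875 and 903 CPM in untreated WT cells. It rose by 0.31 in p65 KO cells and fell by 0.29 in WT cells (difference 0.61 ± 0.04, adjusted p = 6.2e-17). Ankrd1 differed by 0.47 ± 0.06 and Ajuba by 0.39 ± 0.06, while the call of Ccn2 (0.17 ± 0.05) was lost under 8 alternatives.

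BMP and SMAD pathway genes were called higher in 5 of 14 cases and lower in 0, or 1 without untreated WT library b (median 0.24). All 5 fell in WT cells, and Id2, Smad9 and Atoh8 also fell, by less, in p65 KO cells. Atoh8, a transcription factor gene, had 8.61 and 8.11 CPM in TNF-treated p65 KO cells, 11.8 and 11.2 CPM in untreated p65 KO cells, 8.16 and 7.48 CPM in TNF-treated WT cells and 18.2 and 20.3 CPM in untreated WT cells (difference 0.84 ± 0.15, adjusted p = 1.2e-04). The TNF-treated lines ended near each other. Id2, a direct BMP target, had 56.4 and 56 CPM in TNF-treated p65 KO cells, 78.2 and 77.6 CPM in untreated p65 KO cells, 44.6 and 44.2 CPM in TNF-treated WT cells and 79.6 and 79.7 CPM in untreated WT cells, so the lines began alike and parted after TNF (0.37 ± 0.06, adjusted p = 8.4e-05). The inhibitory SMAD gene Smad6 differed by 0.56 ± 0.12 and Smad9 by 0.53 ± 0.09. Id4 (0.96 ± 0.28) was far more abundant in p65 KO cells, and its call was lost under 6 alternatives.

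Among the remaining lists, hyaluronan synthase and EMT factor genes had 2 of 9 called lower and 2 higher. Has2, the main hyaluronan synthase gene, was lower (−0.67 ± 0.07), with 95.7 and 98.7 CPM in TNF-treated p65 KO cells, 81.5 and 82 CPM in untreated p65 KO cells, 39.9 and 36.6 CPM in TNF-treated WT cells and 20 and 20.4 CPM in untreated WT cells. Snai2, an EMT factor gene, was higher (0.64 ± 0.11). Cholesterol synthesis genes had 2 of 22 called lower, of which Hmgcs1 (−0.29 ± 0.05) held in every alternative and Nsdhl was lost under 5. Fibroblast and matrix genes had 2 of 19 called lower, the collagen VI genes Col6a1 (−0.28 ± 0.04) and Col6a2, and 2 higher, S100a4 (0.31 ± 0.06) and Col5a2, whose call was lost under 9 alternatives. Replication and mitosis genes had 1 of 25 lower (Mki67, lost under 10 alternatives) and 2 higher (Ccne2 and Rrm2, the call of Rrm2 lost under 6), SWI/SNF chromatin remodelling subunits 1 of 19 lower (Smarce1, −0.18 ± 0.05, lost under 8 alternatives) and nuclear long non-coding RNAs 3 of 7 higher, led by Neat1 (0.48 ± 0.05). Of the 9 Notch and Wnt genes and the 15 histone genes edgeR with all genes and libraries and DESeq2 called 0, and 4 of each had an unadjusted p under 0.05. In other settings edgeR called 1 Notch or Wnt gene lower, and up to 3 histone genes higher (3 without untreated WT library b or untreated p65 KO library a).

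**Figure D4:**
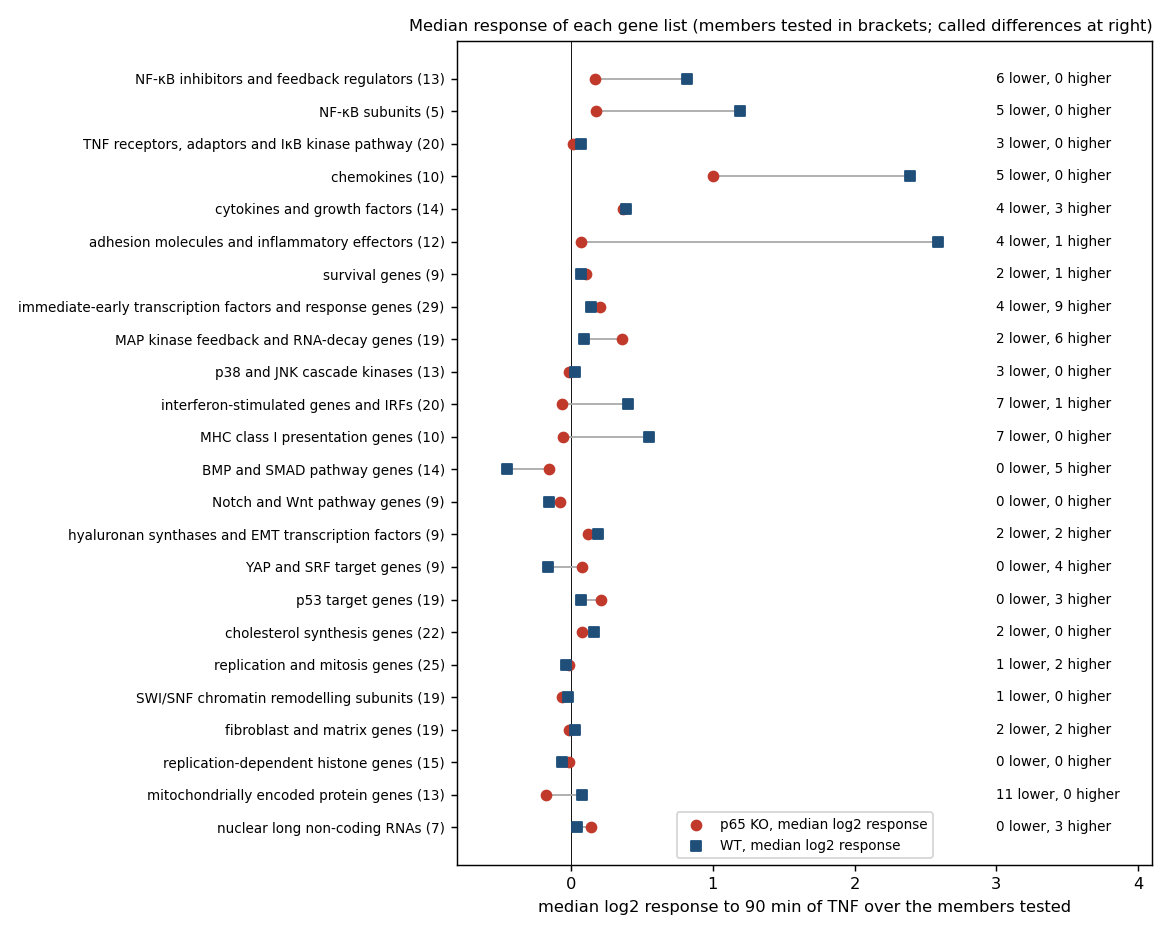
Median log2 response to 90 min of TNF over the members tested of each of 24 gene lists (horizontal axis), red circles for p65 KO cells and blue squares for WT cells, with the number of members tested in brackets and the called differences at the right. The red circles lie left of the blue squares by most in the adhesion molecules and inflammatory effectors, chemokines and NF-κB subunits, and right of them in the MAP kinase feedback, YAP and SRF, and BMP and SMAD lists. The plotted medians include members with a group of 3 counts or fewer. Without such members the median difference was −0.92 for the effectors, −1.56 for the chemokines and −0.92 for the NF-κB subunits.

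The mitochondrially encoded protein genes, subunits of the respiratory chain, were called lower in 11 of 13 cases and higher in 0 (median −0.25). mt-Nd2, a complex I subunit, had 1524 and 1608 CPM in TNF-treated p65 KO cells, 1807 and 1947 CPM in untreated p65 KO cells, 1001 and 969.7 CPM in TNF-treated WT cells and 912 and 920 CPM in untreated WT cells (difference −0.37 ± 0.04, adjusted p = 1.4e-07). mt-Cytb, of complex III, differed by −0.31 ± 0.04 and mt-Co1, of complex IV, by −0.20 ± 0.04. Their share of all counts moved with these values. Mitochondrial genes held 7.98% to 9.0% of counts in TNF-treated p65 KO cells, 11.3% to 11.6% in untreated p65 KO cells, 7.06% to 7.08% in TNF-treated WT cells and 6.63% to 6.86% in untreated WT cells. The part of library quality in this was not tested. The count of 11 became 7 without untreated p65 KO library b and 6 without TNF-treated p65 KO library a. Leaving these genes out of the libraries gave 862 called differences, 554 lower and 308 higher.

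**Figure D5:**
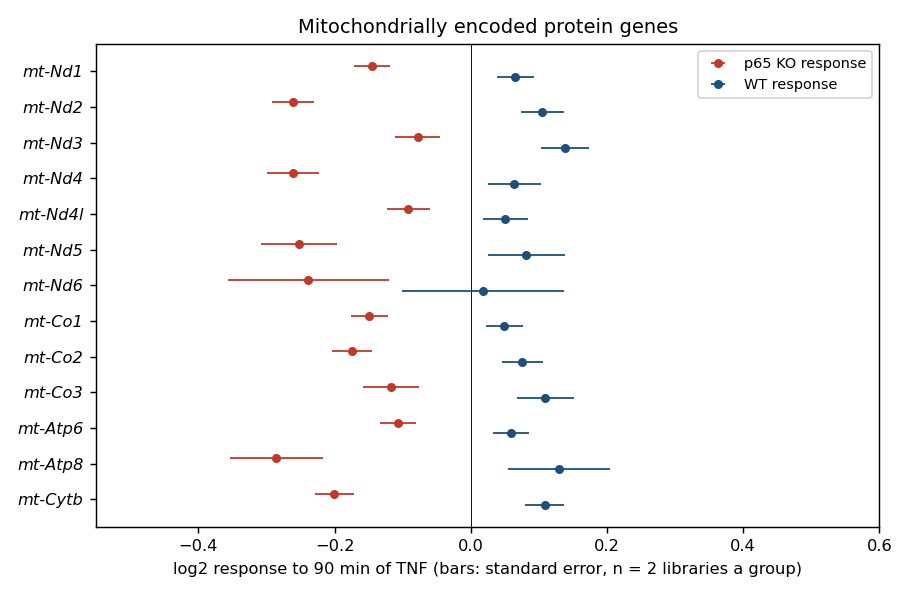
Log2 response to 90 min of TNF of the 13 mitochondrially encoded protein genes (horizontal axis), red for p65 KO cells and blue for WT cells, with bars of 1 standard error (2 libraries a group). All red points lie below 0 and all blue points above it, by less than 0.3 either way.

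The remaining genes among the 12 highest differences were a mixed set. Nkx3-2, a homeobox gene of skeletal development, had 1.68 and 1.56 CPM in TNF-treated p65 KO cells, 0.548 and 0.415 CPM in untreated p65 KO cells, 3.07 and 3.66 CPM in TNF-treated WT cells and 4.41 and 3.2 CPM in untreated WT cells (difference 1.90 ± 0.36, adjusted p = 3.4e-04). Usp13 (0.97 ± 0.20), a deubiquitinase gene, and Borcs7 (0.96 ± 0.22) kept their calls in every alternative. Syk and Tll1 were scarce in p65 KO cells. Syk, a kinase of immune receptors, had 15 counts in TNF-treated and 2 in untreated p65 KO cells, a ratio of 6.9 (95% counting interval 1.6 to 62.2), and Tll1, a metalloproteinase gene, had 14 and 3, a ratio of 4.29 (1.2 to 23.3). Their calls were lost under 4 and 9 alternatives. Those of Plekha7 (1.25 ± 0.32), a junction protein gene, and of the spliceosomal RNA gene Rnu2-10 (1.01 ± 0.23), one of several near-identical copies, were lost under 5 and 8. Of the 12 lowest and 12 highest, 15 kept their call in every alternative in which they were tested. For all 24, by the rule that named them, every pairing of a treated with an untreated library in p65 KO cells lay on one side of every such pairing in WT cells, which held for 31.7% of all genes tested.

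Whether the difference depended on time was tested against 45 min of TNF, as the change of p65 KO cells at 90 against 45 min minus that of WT cells. These contrasts share the TNF-treated 90 min libraries with the difference above. It was lower in 661 genes (4.05%) and higher in 664 (4.07%), a split that was 538 lower and 778 higher with upper-quartile scaling and 778 lower and 677 higher in a fit of these 8 libraries alone. Of the 13 feedback regulators 7 were higher and 0 lower. Tnfaip3 averaged 20.4 CPM in p65 KO cells at 90 min and 18.8 CPM in p65 KO cells at 45 min, against 48.5 CPM in WT cells at 90 min and 557 CPM in WT cells at 45 min, a change of 3.64 ± 0.08 (adjusted p = 2.7e-33). Nfkbia averaged 59.6 CPM and 54.8 CPM in p65 KO cells and 102 CPM and 372 CPM in WT cells, in the same order of times (1.99 ± 0.05). In WT cells both were higher at 45 than at 90 min, and in p65 KO cells they were close at the 2 times. Of the 14 BMP and SMAD genes 9 were lower and 0 higher, and of the 29 immediate-early genes 2 were lower and 13 higher. Egr1 averaged 37.5 CPM in p65 KO cells at 90 min and 42.7 CPM at 45 min, against 126 CPM in WT cells at 90 min and 683 CPM at 45 min (2.25 ± 0.05). H2-K1 and Lif had changes of −0.19 ± 0.16 and 0.20 ± 0.10 and were not called.

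The response of the IKK2 KO line at 90 min was also set against that of the p65 KO line, with the p65 KO libraries shared with the difference above. It was higher in IKK2 KO than in p65 KO cells in 156 genes (0.956%) and lower in 117 (0.717%), a split that became 132 higher and 156 lower with upper-quartile scaling. Leaving out untreated p65 KO library b gave 126 in both directions together, and the count was 136 to 176 without untreated p65 KO library a, TNF-treated p65 KO library a, untreated IKK2 KO library b or either TNF-treated IKK2 KO library. Of the 5 NF-κB subunit genes 4 were higher. Relb averaged 38.9 CPM in TNF-treated and 16.3 CPM in untreated IKK2 KO cells, against 18.1 CPM in TNF-treated and 13.8 CPM in untreated p65 KO cells (0.86 ± 0.10, adjusted p = 2.6e-07). Jun averaged 141 CPM in TNF-treated and 103 CPM in untreated IKK2 KO cells, against 93.2 CPM in TNF-treated and 39.3 CPM in untreated p65 KO cells (−0.79 ± 0.06, adjusted p = 2.6e-12). Of the 19 MAP kinase feedback genes 4 were lower, among them Dusp1 (−0.46 ± 0.10) and Dusp8 (−0.70 ± 0.16).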

How the data were processed

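RNA of immortalised mouse embryonic fibroblasts was sequenced in 18 libraries, 2 in each of 9 groups. Per the labels' protocols, RNA was taken with Trizol and columns, made into libraries with a directional kit and read as 76-base pairs. The submitters' processing notes name HISAT2, Trimmomatic, FastQC 0.11.8, Subread 1.6.2 with featureCounts, edgeR 3.26.4 and the build GRCm38, with no order or role. Not given in the sources used here are the annotation release, the strand setting and the treatment of reads with several matches, so overlapping, antisense and near-identical genes may share reads. The table the authors deposited holds estimated counts per gene that are not scaled, of which 31.8% of the non-zero values are fractional, and these expected counts were rounded to whole numbers.

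From the 55536 genes, 16322 passed edgeR's filterByExpr, which removed 0.0601% of counts. edgeR 4.0.16 in R 4.3.3 fitted 1 coefficient per group over all 18 libraries with TMM scaling and a robust quasi-likelihood test, and p-values were adjusted by Benjamini-Hochberg over all genes tested. CPM used TMM-scaled library sizes. Standard errors are the log2 change over the square root of F. The spread rests on 9 residual degrees of freedom and a median of 32.2 prior degrees of freedom, which the fit borrowed across genes. The fit was tested on simulated data. The count of a group with 0 was set against a floor of 3 counts, and ratios of low counts have 95% intervals that cover counting error only. Gene positions came from GENCODE M21 (GRCm38), which matched all 55536 identifiers, and promoters from RefSeq (GRCm38.p6).

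The genes named are the 12 lowest and 12 highest called differences with a mean of at least 2 CPM in 1 group, libraries that do not overlap and a symbol that is not a clone or predicted name, up to 4 called members of each list, and examples of members not called. For the 2 further contrasts 5 genes in each direction and members of the lists were named. Values of members beyond 4 in a list, and of members not called, were chosen after they were seen. The members and lists were chosen with earlier results of these data known. Alternatives were other scaling, DESeq2 1.42.0, other filters, a fit of the contrast's own libraries, protein-coding genes alone, another prior count, a threshold of 0.01, each library left out in turn and, added after seeing the data, no mitochondrial genes. For single genes, an alternative that gave no adjusted p for the gene was passed over. The other prior count changes the fitted value and cannot end a call. The threshold of 0.01 was applied to the total of called differences alone.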

Additional observations from a re-analysis of the deposited data

Results flagged for a closer look

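The following genes had a TNF response that differed between lines or times by the test of the difference itself (edgeR's quasi-likelihood test), and they were those at the ends of each ranking. For p65 KO minus WT at 90 min the lowest log2 differences were −7.15 for Ccl2, −5.69 for Il15, −5.54 for Ankrd33b, −4.36 for Vcam1, −4.08 for Nod2, −4.06 for Cxcl10, −3.74 for Tlr2, −3.47 for Nfkbie, −3.22 for Pdgfb, −2.93 for Bcl3, −2.79 for Traf1 and −2.54 for Sele. The highest were 2.77 for Syk, 2.41 for Tll1, 1.98 for Spry1, 1.90 for Nkx3-2, 1.25 for Plekha7, 1.17 for Edn1, 1.15 for Dusp1, 1.01 for Rnu2-10, 1.0 for Jun, 0.97 for Usp13, 0.96 for Id4 and 0.96 for Borcs7. Rela, the deleted gene, had −0.59. Untreated WT cells had 0 counts of Il15 and 1 each of Ankrd33b and Nod2, so these fitted values and their ranks depend on a prior count. Over the alternatives they ran from −6.06 to −2.14 for Il15, −7.76 to −3.57 for Ankrd33b and −6.32 to −2.21 for Nod2.

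For the change of p65 KO minus that of WT cells at 90 against 45 min, the lowest values were −3.48 for Has2, −2.27 for Gja4, −1.77 for Hivep3, −1.73 for Vegfa and −1.69 for Sema7a. The highest were 7.15 for Cxcl1, 5.01 for Prex2, 3.64 for Tnfaip3, 2.88 for Irf1 and 2.67 for Edn1. Has2, the hyaluronan synthase gene, averaged 97.2 CPM in p65 KO cells at 90 min and 94.1 CPM in p65 KO cells at 45 min, against 38.3 CPM in WT cells at 90 min and 3.29 CPM in WT cells at 45 min. Irf1 averaged 13.3 CPM and 13.2 CPM in p65 KO cells and 15.9 CPM and 117 CPM in WT cells, in the same order of times. For Cxcl1, 0 counts in WT cells at 90 min make the fitted value depend on a prior count. The calls of Prex2 and Sema7a were each lost in at least 1 alternative.

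For IKK2 KO minus p65 KO at 90 min, the lowest values were −1.26 for Rnu2-10, −1.15 for Atoh8, −0.98 for Mir703, −0.87 for Borcs7 and −0.82 for Flrt3. The highest were 2.12 for Xist, 2.03 for Zfp791, 1.23 for Tlr2, 1.22 for Prl2c2 and 1.16 for Igsf9. Tlr2, the lipoprotein receptor gene, averaged 14.4 CPM in TNF-treated and 7.78 CPM in untreated IKK2 KO cells, against 4.77 CPM in TNF-treated and 6.07 CPM in untreated p65 KO cells. Among these 10, Tlr2 alone kept its call in every alternative. Over the alternatives the value of Xist ran from 1.10 to 6.80 and that of Zfp791 from 1.67 to 2.30.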

How the results depend on the processing

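The 880 called differences became 489 with DESeq2 and 497 at a threshold of 0.01, and 581 to 777 with 1 library left out. With DESeq2 the TNF response was called in 435 genes in p65 KO cells and 844 in WT cells, the change between 45 and 90 min in 721 and the IKK2 KO against p65 KO difference in 142. With 1 library left out these were 452 to 572, 1016 to 1213, 927 to 1219 and 126 to 195, and the baseline gave 12595 to 12731. The cause was not tested. Under the other settings these counts stayed within 1.5 times, and upper-quartile scaling moved the median baseline difference by −0.11. For named and list genes, 6209 values stayed on the same side of the threshold, 299 lost the call and 37 gained one. Among called genes 0 values changed sign. Signs were not compared for genes that were not called. The call held for 76 of 122 called genes in every alternative that tested the gene. No paired analysis was possible because the columns carry library codes and no replicate numbers. With 2 libraries a group, small changes and genes of a few counts are where depth limits the test.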

Other observations

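Counts of gene classes outside the lists are read against the shares over all genes tested, 1.92% called higher and 3.47% called lower. Small nuclear RNA genes, which include the spliceosomal RNAs, were called higher in p65 KO cells in 8 and lower in 0 of 67 cases. Protein-coding genes were called lower in 524 and higher in 265 of 12315 cases. Genes of type still to be determined (TEC in GENCODE) were called higher in 15 and lower in 1 of 989 cases. Copies of small nuclear RNA genes are near-identical, so these values are uncertain.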
